A study of Mus musculus with 4 samples.

Results

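Zinc finger protein genes of the mouse, those whose symbol is Zfp followed by digits only, held 4388 regions in 328 genes among the 849172 regions of a whole-genome bisulfite sequencing study of the CA1 field of the hippocampus. Members were taken by gene name from the deposited table, on autosomes only and without Zfp42. The names matched 4393 regions, of which 5 were dropped because a library had no value there. Methylation of each region is given as a percent, here called its level, in 4 libraries from C57B6/J mice at 117 days of age. The comparison was between groups of 2 libraries each: Tet2+f, called control here, and Tet2+f_Camk2aCre, called Cre here. Both groups carry Tet2+f in their label, and the study describes the Cre tissue as haploinsufficient for Tet2 in glutamatergic cells. Tet2 encodes a dioxygenase that oxidises 5-methylcytosine, and bisulfite treatment does not separate 5-methylcytosine from its first oxidation product, 5-hydroxymethylcytosine. Camk2a, the gene named in the Cre label, is expressed by forebrain excitatory neurons, and no group has Cre without Tet2+f, so reduced Tet2 and the Cre transgene cannot be told apart. A level is an average over all cells of the tissue, so a large change in few cells and a small one in many cannot be told apart.

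Most genes of this family encode proteins with C2H2 zinc fingers, small folds that hold a zinc ion and each read a few bases of DNA. A large subgroup also carries a KRAB domain, which recruits Trim28 and, through it, the histone methyltransferase Setdb1 and heterochromatin proteins to retrotransposons and imprinted loci. In such genes the fingers are usually encoded together in the long last exon, and the genes often stand in clusters that grew by duplication. The table assigns each region to a gene and strand but gives no exons, so the first and the last 10% of each gene's regions, ordered by strand, stand here for the start and for the end where the finger exon usually lies. These shares, called the start segment and the end segment, were rounded up to whole regions, and 274 genes of 5 or more regions, with 4219 regions, could be divided in this way. The other 54 genes had too few regions. Genes had 1 to 189 regions, with a median of 8 and the most in Zfp407. In the 26 genes of 4 regions, just below the minimum, the first region had a median level of 39.0% and the last of 89.3%, and in the 32 genes of 5 regions these were 12.7% and 89.5%.

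Promoter windows of 300 bases, from 250 before to 50 after a gene start, show the sequence around the starts. They were taken from RefSeq (GRCm38.p6, which matches the mm10 coordinates of the table), run 5′ to 3′ along the gene, and have each CG dinucleotide, the site of methylation, in capitals. The first pair shows starts that were nearly free of methylation. Zfp809, which recognises the primer-binding site of murine leukaemia virus, is shown at chr9:22225453-22225752 (plus strand, 11 CG), and its start region averaged 0.162%. Zfp606 is shown at chr7:12478055-12478354 (plus strand, 16 CG), with a start region at 0.272%. The other 4 windows show starts of 1 gene at opposite levels. Zfp57, which keeps methylation at imprinting control regions, has a window at chr17:37002275-37002574 (plus strand, 9 CG) whose region averaged 5.94% and one at chr17:37000913-37001212 (plus strand, 6 CG) whose region averaged 89.8%. Zfp708, a KRAB factor that binds retrotransposon sequence, has a window at chr13:67081496-67081795 (minus strand, 8 CG) at 0.199% and one at chr13:67097927-67098226 (minus strand, 9 CG) at 89.4%.
Zfp809: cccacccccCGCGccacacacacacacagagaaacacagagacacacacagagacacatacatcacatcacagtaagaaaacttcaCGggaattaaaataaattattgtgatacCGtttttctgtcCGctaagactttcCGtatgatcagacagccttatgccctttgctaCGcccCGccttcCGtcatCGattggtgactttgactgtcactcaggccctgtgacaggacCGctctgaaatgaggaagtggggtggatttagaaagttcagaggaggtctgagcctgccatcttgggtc
Zfp606: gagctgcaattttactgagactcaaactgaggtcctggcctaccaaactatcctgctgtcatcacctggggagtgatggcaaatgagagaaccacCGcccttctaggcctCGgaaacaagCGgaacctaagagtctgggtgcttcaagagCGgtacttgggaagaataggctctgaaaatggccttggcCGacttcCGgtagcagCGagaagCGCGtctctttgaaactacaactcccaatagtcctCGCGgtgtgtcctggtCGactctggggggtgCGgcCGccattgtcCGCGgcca
Zfp57, low start: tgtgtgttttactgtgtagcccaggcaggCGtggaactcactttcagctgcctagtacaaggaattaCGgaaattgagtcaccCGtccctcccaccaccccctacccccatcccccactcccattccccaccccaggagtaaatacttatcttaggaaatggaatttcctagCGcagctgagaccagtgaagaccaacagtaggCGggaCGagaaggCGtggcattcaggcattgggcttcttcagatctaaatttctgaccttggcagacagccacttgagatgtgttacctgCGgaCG
Zfp57, methylated start: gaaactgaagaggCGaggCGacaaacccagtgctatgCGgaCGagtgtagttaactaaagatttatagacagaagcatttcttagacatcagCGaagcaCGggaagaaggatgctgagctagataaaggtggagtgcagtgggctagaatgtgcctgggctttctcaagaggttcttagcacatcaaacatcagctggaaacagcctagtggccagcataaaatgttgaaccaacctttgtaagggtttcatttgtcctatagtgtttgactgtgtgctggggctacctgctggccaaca
Zfp708, low start: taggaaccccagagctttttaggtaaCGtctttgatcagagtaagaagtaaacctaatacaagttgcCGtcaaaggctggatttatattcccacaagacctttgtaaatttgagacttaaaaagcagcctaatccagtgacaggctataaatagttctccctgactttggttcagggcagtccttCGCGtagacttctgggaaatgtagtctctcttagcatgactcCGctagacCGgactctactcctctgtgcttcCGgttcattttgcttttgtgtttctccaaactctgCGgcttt
Zfp708, methylated start: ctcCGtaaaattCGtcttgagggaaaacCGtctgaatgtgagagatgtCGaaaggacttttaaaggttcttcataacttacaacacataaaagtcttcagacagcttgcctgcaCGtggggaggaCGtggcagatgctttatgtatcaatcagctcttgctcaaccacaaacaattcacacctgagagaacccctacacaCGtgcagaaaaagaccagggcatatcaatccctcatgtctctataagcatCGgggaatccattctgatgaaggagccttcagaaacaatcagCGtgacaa

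Levels came without coverage, so the depth of a region is unknown and counting error could not be computed. Nothing in the labels tells if libraries of a group are from different mice, so the p-values rest on a spread between libraries that may be only technical. Replicate 1 of the Cre group stood apart at single regions. It lay more than 20 points above each other library in 7 of the 4388 Zfp regions, against 0 for every other library, and in 306 of 806066 autosomal regions, against 44 to 75 for the others. Markers of cell types of the hippocampus, not only of CA1, were read where they had a RefSeq start. At least 1 start region was under 20% in 4 of 5 for CA1 and other glutamatergic neurons. The same held in 2 of 2 for dentate granule cells and 4 of 4 for interneurons. It was so in 1 of 2 for endothelium, 1 of 3 for oligodendrocytes (Cnp, at 19.2%), 0 of 3 for astrocytes and 0 of 1 for microglia. The astrocyte marker Slc1a2 had its RefSeq start in a region at 72.1% but a start segment at 4.14%. Averaged over gene bodies, the glutamatergic markers were at 55.8% and 55.9% in the control and 56.9% and 56.3% in the Cre libraries. The interneuron markers were at 38.1% and 38.6% in the control and 38.8% and 39.2% in the Cre libraries. Dentate granule cell markers ran from 61.1% to 63.0% and endothelial markers from 58.0% to 58.8%. The astrocyte markers ran from 68.4% to 68.8%, and in these last 3 sets the groups overlapped. The oligodendrocyte markers were at 66.5% and 66.1% in the control and at 66.9% in both Cre libraries. The microglia markers were at 67.4% and 68.0% in the control and 67.1% and 66.4% in the Cre libraries. Glutamatergic, interneuron and oligodendrocyte markers were thus higher in both Cre libraries and microglia markers lower. Whether the groups differed in cell composition was not tested.

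Most Zfp regions were highly methylated, and the rest were spread over intermediate and low levels. Of the 4388 regions, 685, or 15.6%, were under 20%, 1142 lay from 20 to 80%, and 2561, or 58.4%, were at 80% or more. Over all autosomal regions, which include those outside genes, the low class held 6.73% and the high class 63.3%. Over regions of other autosomal genes these shares were 10.6% and 58.3%, so the high share was almost that of Zfp regions. In Zscan and Zkscan genes the low class held 16.6% and the high class 58.9%, and in Zbtb genes 13.8% and 47.7%. Low regions were short, with a median length of 337 bp against 1992.5 bp in the middle class. The mean level was 68.9% and 69.2% for control and 69.3% and 69.0% for Cre, so the groups overlapped. The median was 83.6% and 83.9% for control and 83.8% and 83.7% for Cre, close to the median over all autosomal regions, which ran from 83.3% to 83.6%. The 54 genes of under 5 regions averaged 74.9% to 75.3% over the 4 libraries.

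Within the genes, methylation climbed from start to end in every library. Over the 274 genes the start segment averaged 18.2%, 18.1%, 18.3% and 18.2% in control replicates 1 and 2 and Cre replicates 1 and 2, and the end segment 84.4%, 84.4%, 84.5% and 84.4% in the same order. The gap was 66.2 points in each library. It was positive in 267 of 274 genes by the mean over libraries and in 264 genes in each of the 4 libraries. In steps of 10% of a gene's regions, the mean level was 16.5% in the first step, then 30.0%, 47.7% and 66.9%. It reached 79.8% in the sixth step and stayed between 83.9% and 85.5% in the later steps, with 167 to 274 genes at a step. The 32 genes of 5 regions had no region in the first step, which held 242 genes, and their first regions counted in the second. The libraries differed from each other by under 1 point at each step.

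**Figure D1:**
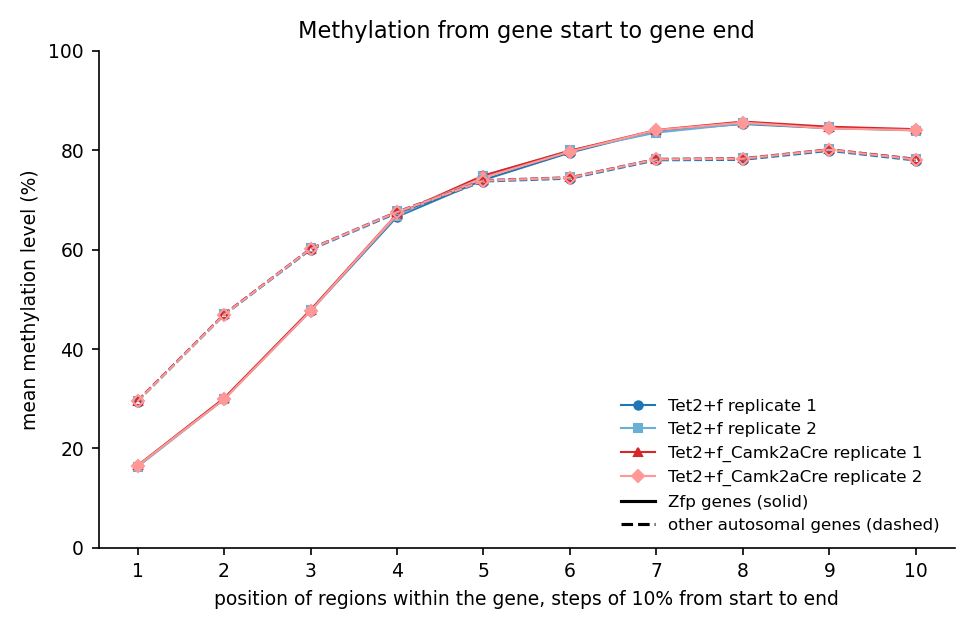
Mean methylation level (vertical axis, percent) in steps of 10% of each gene's regions from start to end (horizontal axis), for Zfp genes (solid) and other autosomal genes (dashed), 1 line per library. The 4 libraries lie on top of each other, and the Zfp lines start at 16.5% and end at 84.1%, against 29.5% and 78.1% in other genes.

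Starts varied far more between genes than between libraries. By the mean of the 4 libraries, 189 genes, or 69.0%, had a start segment under 20%, 54 lay from 20 to 60%, and 31 were above 60%, and the median over genes was 4.41% with quartiles of 0.392% and 25.9%. Replicates of a group differed by a median of 0.784 points (control) and 0.755 points (Cre) in the same start segments. The 90th percentiles of these differences were 4.27 and 3.80 points, and the largest were 9.88 and 13.7 points. Over genes the standard deviation was 25.4 points, which is another measure of spread than these differences. Ends were more alike: the end segment had a median of 88.5% with quartiles of 81.8% and 92.3%, and 211 genes, or 77%, were at 80% or more. At the ends, replicates differed by a median of 1.78 points in the control group and 1.89 points in the Cre group.

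The genes with the widest span between start and end segments went from almost no methylation to almost complete methylation. In Zfp90 (chromosome 8, 106415339 to 106426031) the first region was at 0%, 0.388%, 0% and 0% in control replicates 1 and 2 and Cre replicates 1 and 2, and the last was at 96.1%, 96.9%, 98.0% and 97.1%. In between, the second region averaged 31.9% and the third 93.7%. The next were Zfp146 and Zfp606 on chromosome 7, Zfp944 on chromosome 17 and Zfp263 on chromosome 16, with spans of 96.7, 96.5, 96.6 and 96.3 points. Each of these 5 genes had a start segment at 0% in at least 1 library, and the lowest of their end segments was 95.5%, in Cre replicate 1 of Zfp606. The order depends on the segment: with 20% of regions Zfp90 had the smallest span of the 5, at 79.7 points, and the others had 90.7 to 96.3 points.

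**Figure D2:**
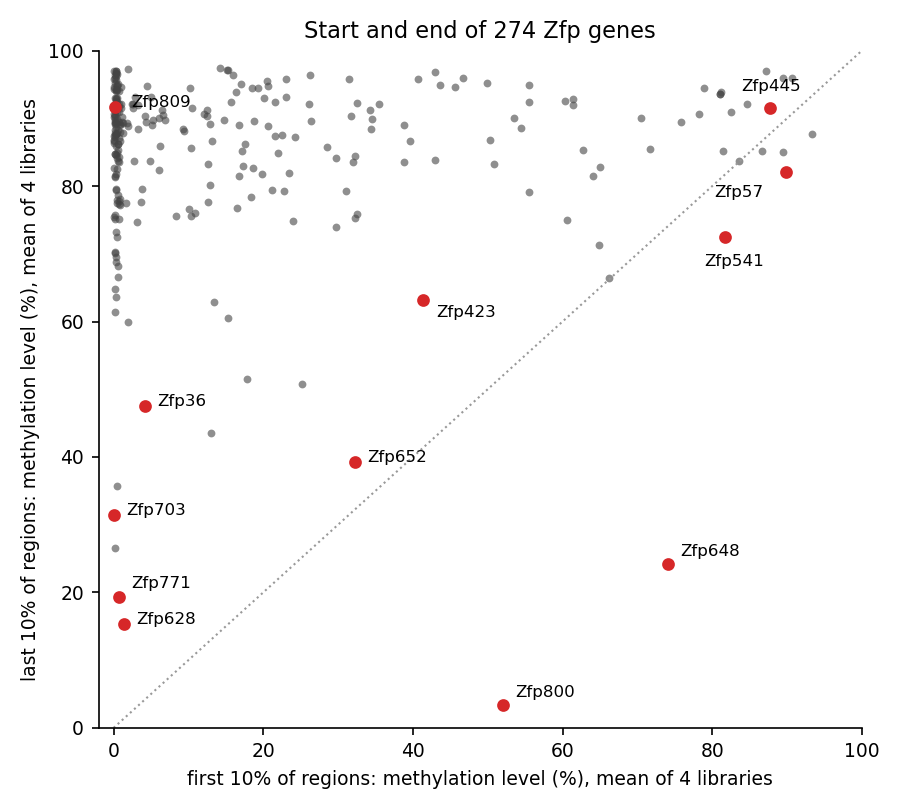
Methylation level of the end segment against the start segment (both in percent, mean of 4 libraries) for 274 Zfp genes, 1 point per gene, with the dotted line marking equal levels. Most points sit at the upper left, and the named genes in red include 4 below the line (Zfp57, Zfp541, Zfp648, Zfp800).

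In all, 7 genes had a lower end segment than start segment. The difference was largest in Zfp648 (chromosome 1, 154201156 to 154206002), whose start segment was at 76.9% and 82.0% in the control and 70.1% and 67.4% in the Cre libraries, and whose end segment was at 27.8%, 18.4%, 19.3% and 31.2%. Zfp800 (chromosome 6, 28260947 to 28398234) averaged 52.0% at the start and 3.36% at the end, where its regions averaged 152 bp. A second RefSeq start of Zfp800 lies in the region just before this segment, from 28261866 to 28262093, which was at 0% in both controls and at 14.1% and 3.13% with Cre. The first region of the gene, which holds its other RefSeq start, averaged 3.92%. Zfp541, a factor of male germ cells, went from 81.7% at the start to 72.5% at the end, Zfp57 from 89.8% to 82.1% and Zfp775 from 93.4% to 87.7%. The direction in Zfp57 rested on its first region, of 2821 bp, since the next 2 regions averaged 5.94% and 0.134%. With the first and last 20% of regions in place of 10%, its difference was 36.9 points in the opposite direction. In each of the other 4 named genes the end stayed below the start in that setting, by 0.144 points in Zfp775. The RefSeq start of Zfp775 lies before its assigned regions, in a region from 48601873 to 48602179 on chromosome 6, which was at 1.02% and 0% in the control and 1.04% and 0.2% in the Cre libraries. Read from that region, Zfp775 ended higher than it started.

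Low ends were few. The end segment was under 50% in 10 of the 274 genes, or 3.65%, against 6.22% of 15203 other autosomal genes. The 10 genes were Zfp800, Zfp648, Zfp628, Zfp771, Zfp653, Zfp703, Zfp664, Zfp652, Zfp238 and Zfp36. Zfp628 averaged 1.38% at its start and 15.3% at its end, and Zfp771 0.681% and 19.4%. Zfp703, a developmental factor, had a start segment at 0% in all 4 libraries and an end segment at 31.0% and 28.3% in the control and 33.0% and 33.6% in the Cre libraries. Zfp238, the older symbol of the cortical repressor gene Zbtb18, ended at 43.5%. Zfp36 encodes tristetraprolin, a CCCH-type protein that destabilises messenger RNAs, and its end segment was at 45.8%, 48.3%, 49.9% and 46.2% in control replicates 1 and 2 and Cre replicates 1 and 2. Among the 669 regions under 20% in genes of 5 or more regions, 359 lay in a start segment, 296 between and 14 in an end segment.

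**Figure D3:**
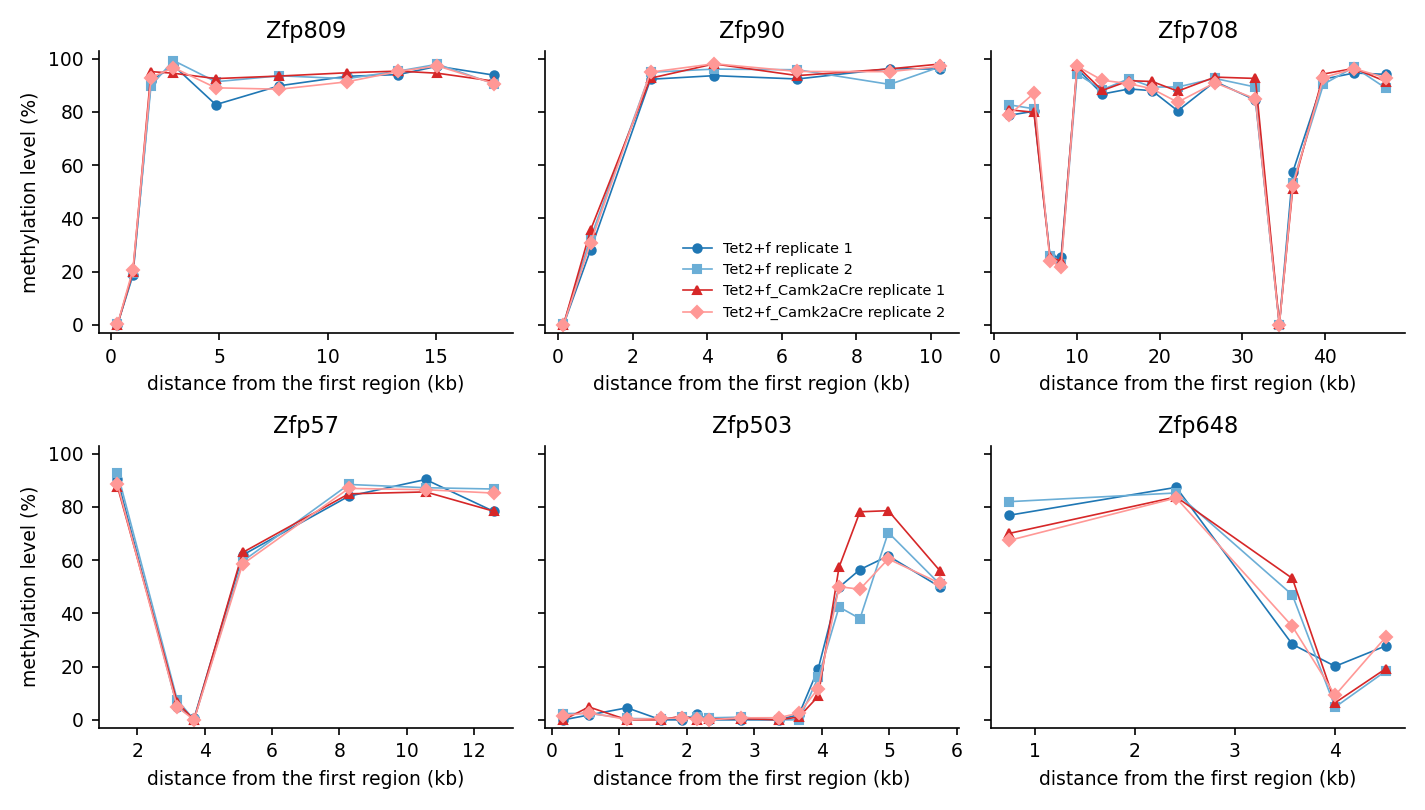
Methylation level (percent) of each region against the distance of its middle from the first region's outer edge (kb) in 6 Zfp genes, 1 line per library. Zfp809 and Zfp90 climb once and stay high, Zfp708 and Zfp57 dip inside the gene at a RefSeq start, Zfp503 is unmethylated over most of its length, and Zfp648 is low at its end.

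Start levels depended on which start was read. RefSeq gave promoter windows for 265 of the 328 genes, and 319 windows of 261 genes lay in a region with values. The region that held the start was under 20% at 235 windows, or 73.7%, from 20 to 60% at 55 and above 60% at 29. Among windows of all other autosomal genes 40.2% were under 20% and 48.1% above 60%. These other windows were not matched to the Zfp genes by kind of gene or number of regions. Of the 222 genes that had both a window and 5 or more regions, the start segment held a RefSeq start in 178. It did so in 135 of the 156 genes whose start segment was under 20% and in 11 of the 24 whose start segment was above 60%. With the region that holds the RefSeq start in place of the start segment, the mean gap from start to end was 72.3 points, a measure chosen after seeing the data. It covers only genes of 5 or more regions with a RefSeq start in a measured region, fewer than the 274 divided genes. Several starts of a gene were averaged.

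Starts of 1 gene could lie at opposite levels. In 35 genes, RefSeq starts fell in 2 or more regions. All of them were under 20% in 19 genes, and 6 genes had both a start under 20% and one above 60%: Zfp217, Zfp788, Zfp708, Zfp57, Zfp239 and Zfp37. In Zfp708 the region of the low start (chromosome 13, 67081283 to 67081875) was at 0.278% and 0% in the control and 0.386% and 0.134% in the Cre libraries, and that of the methylated start (67095726 to 67098214) at 88.0%, 89.4%, 91.5% and 88.7%. The printed windows of these starts hold 8 and 9 CG, so their CG number was almost the same. The table gives Zfp708 a pair of Ensembl identifiers, the only Zfp gene with more than 1, and one identifier covers the 7 upstream regions, which include another dip, at 25.4% and 23.6%. Zfp423, a neural and adipose developmental factor, had a start at 0.198% and an inner one at 42.4%.

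Across windows, the number of CG was higher where the start was low. Zfp windows whose start region was under 20% had a median of 18 CG (quartiles 12 and 24), those from 20 to 60% had 9, and those above 60% had 4 (quartiles 3 and 6). Low starts of other genes held more CG, with a median of 23, and methylated starts of other genes 3. The region around a low Zfp start had a median length of 434 bp, and that around a start above 60% one of 3668 bp. A long region can cover more than the start: at Zfp37 a window with 17 CG fell at the edge of a region of 4357 bp at 66.8%, while another start of the gene was at 0.167%. Unbroken stretches under 20% around a low start, with gaps of at most 500 bp, had a median of 1216 bp in 200 Zfp genes and 1481 bp in 10543 other genes. None of the Zfp stretches exceeded 5000 bp, against 3.22% of the others, and the longest was that of Zfp536, a repressor of neuronal differentiation, at 4817 bp.

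**Figure D4:**
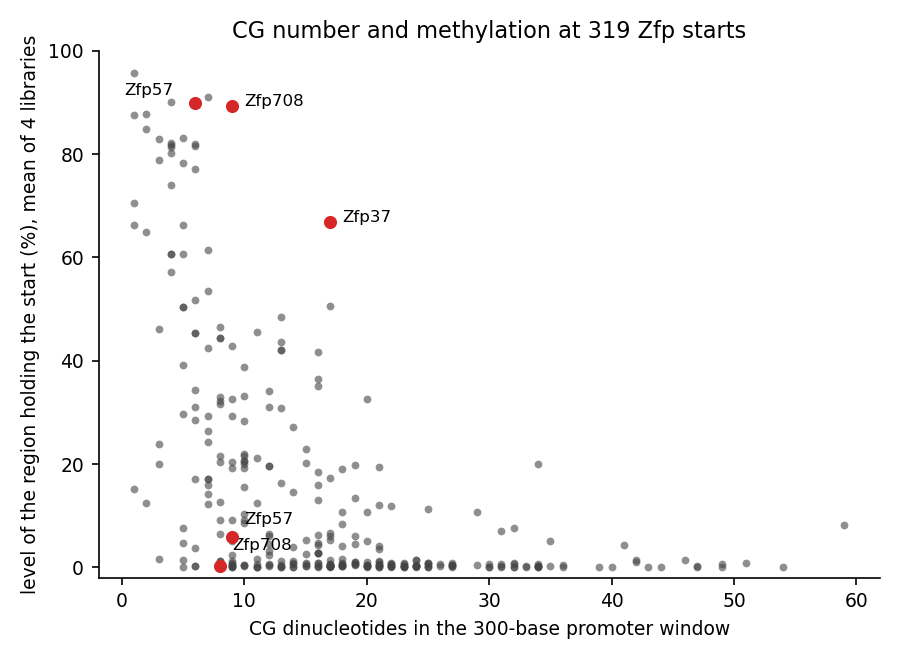
Level of the region that holds a RefSeq start (percent, mean of 4 libraries) against the number of CG dinucleotides in the 300-base promoter window, 1 point for each of 319 Zfp windows. Starts above 60% have a median of 4 CG and those under 20% a median of 18, and the red points of Zfp708 and Zfp57 show similar CG numbers at opposite levels.

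KRAB factors of imprints and retroelements kept methylated ends with very different starts. All 7 listed genes were measured, 6 of them with 5 or more regions, and their end segments ran from 82.1% to 93.9%. Zfp809 had a start segment at 0.170%, 0.222%, 0% and 0.255% in control replicates 1 and 2 and Cre replicates 1 and 2, and an end segment at 93.8%, 90.6%, 91.6% and 90.7%. Zfp819, a repressor of retrotransposons, was at 7.20% and 5.13% at its start in the control and 2.14% and 5.96% in the Cre libraries. Zfp568, which represses a placental transcript of Igf2, started at 22.3% to 23.0% and ended at 86.3% to 88.6%. Zfp445, which keeps imprints together with Zfp57, was methylated at both ends, at 84.0% to 90.7% and 89.2% to 93.3%. Its RefSeq start, in a neighbouring region outside its assigned ones (chromosome 9, 122865847 to 122866568), was at 8.50%, 9.30%, 8.0% and 8.70%. The start of Zfp932, a gene of 4 regions whose protein binds endogenous retroviruses, was at 27.9% to 31.5%. Of the 6 listed genes with a RefSeq start, 5 had one under 20%.

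Among 13 neural and developmental factors the start segment ran from 0% to 64.1% and the end segment from 31.5% to 89.1%. Zfp335, which is needed for neurogenesis, had a start segment at 0% and 0.741% in the control and 0% and 0.217% in the Cre libraries, and an end segment at 86.8%, 86.1%, 82.5% and 83.7%. Zfp503, a striatal developmental factor, was low over most of its length. Its first 10 regions averaged at most 2.93%, and its gene mean was 16.6%. The long genes Zfp423, Zfp521 and Zfp407 had start segments of 41.4%, 32.0% and 64.1%, and each of these segments spanned many regions, since the genes held 162, 123 and 189. In Zfp423 the region with the RefSeq start was at 0% in 3 libraries and at 0.794% in Cre replicate 2.

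Ubiquitous factors outside the KRAB group had low starts. In the 11 listed genes the start segment ran from 0.244% to 18.7%, with a median of 0.574%, and 10 of the 11 had a RefSeq start under 20%. Zfp143, an activator of housekeeping promoters, was at 0%, 1.71%, 0% and 0.593% at its start and at 87.0%, 83.4%, 85.2% and 85.9% at its end. Zfp207, a spindle-associated protein, was at 0% to 0.667% and 80.7% to 82.5%. Zfp281, a regulator of pluripotency, had 4 leading regions under 1% and a gene mean of 18.6%. The end segment of Zfp598, a ubiquitin ligase that senses collided ribosomes, varied most between replicates among all 274 genes, at 53.3% and 66.5% in the control and 59.8% and 74.9% in the Cre libraries. Of the partners of KRAB factors, which are no members, 9 of 12 listed genes had autosomal regions assigned to them. Of these 9 genes, 0 passed the group test in either direction. Atf7ip and Tasor had no assigned regions, but the regions that hold their RefSeq starts averaged 0.570% and 0.648%. Start segments of the 9 genes ran from 0% to 33.0%, and that of Trim28 was at 0.500% in control replicate 1 and at 0% in the other libraries.

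Clustered and isolated Zfp genes shared the pattern. Chromosome 7 held 85 of the 328 genes, chromosome 17 held 39 and chromosome 13 held 31. With gaps of at most 500000 bp, 140 genes stood in 15 clusters of 5 or more, 75 in groups of 2 to 4, and 113 had no Zfp gene that near. Among genes of 5 or more regions, the median start segment was 3.87% in the clusters, 12.9% in the small groups and 1.97% in isolated genes, and the median end segment was 89.9%, 89.3% and 85.3%. Clusters differed among themselves. In the cluster on chromosome 17 from 21008940 to 23600890, all 17 divided genes ended at 80% or more, with a median of 92.4%. On chromosome 13, from 66666544 to 67830360, 3 of 12 divided genes had a start segment under 20%, and the median start segment was 28.9%. On chromosome 7, from 29768374 to 30170027, the cluster that holds Zfp568 and Zfp146 had 10 of 13 start segments under 20% and all 13 end segments at 80% or more. Reads of near-identical cluster members may be assigned to the wrong copy, so levels in clusters are uncertain.

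The gap between start and end was wider than in other genes. Over 15203 other autosomal genes of 5 or more regions, the start segment averaged 31.6% and the end segment 78.3%, a gap of 46.7 points. The gap of Zfp genes exceeded it by 19.6, 19.5, 19.5 and 19.5 points in control replicates 1 and 2 and Cre replicates 1 and 2. Against other genes without predicted names the excess was 16.9 points, and against genes with a like number of regions 16.3 points. By count, 69.0% of Zfp genes had a start segment under 20%, against 51.5% of the others. The share was 54.3% in other genes without predicted names and 60.9% in those with a like number of regions. Among genes with such a start, the end segment averaged 84.2% in 189 Zfp genes and 77.2% in 7825 others. In the size of the gap, related families lay close to the Zfp genes. It was 65.4 points in 15 Zscan and Zkscan genes, which share fingers and often a KRAB or SCAN domain. In 30 Zbtb genes, whose fingers are joined to a BTB domain, it was 67.6 points. Start segments of these families averaged 19.4% and 12.2%, and end segments 84.8% and 79.7%. The Zbtb ends thus lay nearer to those of other genes than to those of Zfp genes, at 84.4%. These are descriptions over genes, which are not replicates. Exact tests over the libraries were run on means over the member list. Their p are not reported here, since the members were chosen with earlier results known.

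No Zfp region, gene, start segment or end segment passed the test of the Cre group against the control group. The test was limma on logit-transformed levels across all features, with Benjamini-Hochberg adjustment at 0.05. It called 0 of 4388 regions, 0 of 328 genes, 0 of 274 start segments and 0 of 274 end segments, and the share called over all features was also 0% in each of these fits. The smallest adjusted p among members was 0.937 for regions, 0.781 for genes, 0.491 for start segments and 0.919 for end segments. The group means of the start segment were 18.2% ± 0.0597 (SD, n = 2) and 18.3% ± 0.0771 (SD, n = 2), and those of the end segment 84.4% ± 0.0196 (SD, n = 2) and 84.4% ± 0.126 (SD, n = 2), for control and Cre. The Cre group was higher by 0.0696 points at starts and 0.0630 points at ends, with overlapping libraries in both cases. The median difference over the members was 0.0347 points for regions and 0.127 points for genes, beside -0.0214 and 0.0300 over all features. For start and end segments the medians were -0.0285 and -0.0480 points, opposite in sign to the means, and the Cre group was higher in 48.2% and 49.3% of the 274 genes.

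Counts at an unadjusted p under 0.05 lay above the share of the whole table at gene ends and below it for whole genes. They were 244 regions, or 5.56%, against 4.6% of all regions, 10 genes, or 3.05%, against 5.37%, and 15 start segments, or 5.47%, against 6.29%. At the ends there were 27 end segments, or 9.85%, against 5.27%, 12 with the Cre group higher and 15 with it lower, beside 2.77% and 2.5% of all end segments. On the percent scale this count was 14, or 5.11%, against 5.41%. The logit scale stretches differences near 0% and 100%. On that scale, among end segments at 80% or more, the count was 23 of 211, or 10.9%, against 5.53% of all. Among end segments under 80% it was 4 of 63, or 6.35%, against 4.8%. The cause of the higher share at the ends was not tested. The Cre libraries were both above the controls in 44 end segments, against 17.7% of all, and both below in 49, against 16.2%, which are shares of 16.1% and 17.9%. For start segments these counts were 38 and 37, or 13.9% and 13.5%, against 15.8% and 14.8%. Over whole genes 66 were above and 43 below, or 20.1% and 13.1%, against 17.3% and 15.8%.

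None of the members with the smallest p passed after adjustment. At gene starts, Zfp191 was at 2.50% and 2.33% in the control and at 0% in both Cre libraries (limma adjusted p = 0.491), Zfp1 at 0.486% and 0.417% against 0% in both, and Zfp770 at 5.37% and 4.72% against 3.26% and 3.35%. Higher in the Cre group were the starts of Zfp940, at 18.5% and 18.0% against 23.3% and 22.4%, of Zfp704, at 16% and 17.1% against 20.9% and 20.6%, and of Zfp128, at 0% and 0.332% against 1.06% and 1.61%. Levels this close to 0% can rest on single reads, and the depth is unknown. At gene ends, Zfp641 was at 83.9% and 82.3% against 75% and 76.4%, a difference of -7.39 points (limma adjusted p = 0.919). Zfp939 and Zfp61 differed by -3.25 and -2.59 points, and Zfp174, Zfp35 and Zfp2 by 4.75, 4.11 and 4.06 points. None of the libraries of the 2 groups overlapped in these members, as a small p with 2 libraries a group requires.

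Over whole genes the smallest p were found for Zfp936, at 77.6% and 76.9% in the control and 80.3% and 81.1% in the Cre libraries (limma adjusted p = 0.781), for Zfp35, higher by 2.42 points, and for Zfp703, higher by 4.46 points. Zfp429, Zfp239 and Zfp438 differed by -2.45, -1.87 and -1.41 points. Among single regions, one of 123 bp at the start of Zfp704 (chromosome 3, 9609874 to 9609996) was at 14.5% and 10.4% in the control and at 35.2% and 44.8% in the Cre libraries, a difference of 27.5 points (limma adjusted p = 0.937). The other 5 regions of smallest p, in Zfp142, Zfp219, Zfp191, Zfp423 and Zfp821, differed by -3.06 to 2.99 points, and in each of them both libraries of 1 group were at 0%. Differences of more than 10 points either way were seen in 34 of the 4388 Zfp regions, or 0.775%, and in 0.875% of all regions.

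**Figure D5:**
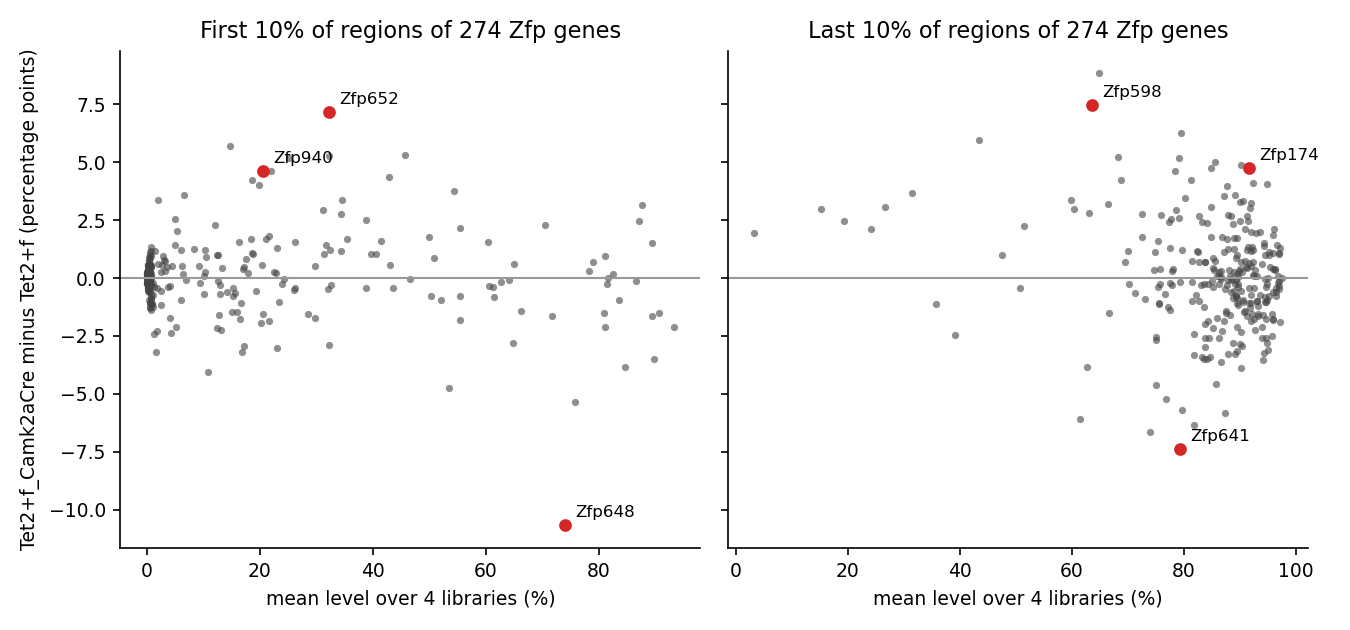
Difference between the group means, Tet2+f_Camk2aCre minus Tet2+f (percentage points), against the mean level (percent) in the start and the end segment of 274 Zfp genes, 1 point per gene. The points scatter around 0, none passed the test, and the red points mark single genes such as Zfp648, at -10.7 points at its start, and Zfp641, at -7.39 points at its end.

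Some of the wider differences came from 1 library. The assigned regions of Zfp652 begin well before its RefSeq start, which lies in a region from 95749033 to 95749878 at 83.1%. The first 10% of these assigned regions was at 28.9% and 28.5% in the control and at 42.7% and 29.0% in the Cre libraries. In the first assigned region (chromosome 11, 95713052 to 95713204, 153 bp) Cre replicate 1 was at 62.2% and each other library at 0%. The same library stood above the others at single short regions of Zfp236, Zfp316, Zfp503 and Zfp777. Without Cre replicate 1 the difference over all start segments was 0.0151 points, and the difference over end segments -0.0262 points.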

How the data were processed

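DNA from CA1 tissue of 4 mouse libraries was bisulfite converted (Accel-NGS Methyl-Seq, Swift) and read in pairs on a HiSeq X10, per the labels' protocols. The authors deposited percent methylation per region and library, in mm10, and the submitters' processing notes name Bismark 0.19.0, Trim Galore 0.4.5, edgeR and FastQC 0.11.5, without roles. How regions were drawn and CpGs averaged is not given in the sources used here, and without coverage in the deposited percent values thin and deep regions count equally.

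Libraries were grouped by title. Regions with a value in all 4 libraries, 849014, were kept. Per gene, regions were averaged over the whole gene and over its first and last 10% by strand, and 89 gene names with several identifiers were left out of the other genes. Groups were compared with limma 3.58.1 (R 4.3.3) on log2((level + 0.01) / (1 - level + 0.01)), the level as a share of 1. The fits covered all regions, 23626 genes and 15477 start and end segments. This step was also run on simulated data, and the share of changes it recovered is not reported here. A lack of calls does not show that differences were absent. The members and lists were chosen with earlier results of these data known, so no p is given for means over them. With 2 libraries against 2 an exact test of such a mean could not go below 0.333. Named are the 5 widest and 5 smallest gaps, the 3 smallest p in each direction, and list members. Other genes were singled out after their values were seen. Windows came from RefSeq GRCm38.p6, whose gene table held 315 of the 328 genes. Other settings were length weights, segments of 20%, 10 or more regions, other scales, priors and offsets, a replicate block and leaving out each library. Promoter motifs were searched and are not reported here.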

Additional observations from a re-analysis of the deposited data

How the results depend on the processing

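The gap of 66.2 points between start and end kept its direction in every setting, from 60.03 points with segments of 20% to 72.3 points with the region of the RefSeq start, and was 66.2 points without each library in turn. The value of 72.3 points covers only the genes with a RefSeq start in a measured region. The excess of the gap over other genes was 19.5 points without each library. The group difference in the mean level ran from -0.0103 to 0.303 points over the settings that leave out 1 library, that of start segments from 0.0151 to 0.124, that of end segments from -0.0262 to 0.152, and that of the gap, -0.00661 points, from -0.0414 to 0.0281. With means weighted by region length the start segment differed by -0.0168 points and the gap by 0.103 points. With segments of 20% the gap differed by 0.0425 points, and with every region counted equally the start segment differed by 0.287 points, the end segment by -0.00249 points and the gap by -0.290 points. Over genes of 10 or more regions the start segment differed by 0.226 points and the gap by -0.132 points, against 0.0696 and -0.00661 points as reported. In settings chosen after seeing the data, the gap differed by 0.0328 points over regions that overlap the RefSeq gene, and over genes whose start segment holds a RefSeq start the start segment differed by -0.0610 points and the gap by 0.10 points. The cause of these changes of sign was not tested. With segments of 20% the gap of Zfp57 was 36.9 points.

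The labels do not say whether replicate numbers pair the libraries. Deviations of same-numbered libraries from their group means correlated at 0.00648 over all regions. That value cannot decide the question, because counting error at unknown depth also enters the deviations. A replicate block gave 0 calls in each fit, as did every other setting run, and the named features had adjusted p from 0.356 to 1 over 216 values. The planned setting of only regions that the deposited annotation gives as overlapping their gene was not run, since all 425569 annotated regions do. Read depth is unknown, so its limit on single regions cannot be given.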
